A study of Mus musculus with 20 samples.

Results

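A set of 8 genes, here called the primary (azurophil) granule genes, was followed across 20 RNA-seq libraries of mouse bone marrow neutrophils. It holds *Mpo*, *Elane*, *Prtn3*, *Ctsg*, *Prss57*, *Ms4a3*, *Ctsc* and *Srgn*. The genes were chosen by name, as those of the granule's contents and of proteins that process or package them, with the precursor marker *Ms4a3*. Earlier results of these data were known when they were chosen. All 8 are among the 24421 genes listed and among the 14030 that had enough reads to be tested. Each library came from 1 female mouse, and there were 5 mice in each of 4 groups. WT mice were purchased C57BL/6J animals. Bmal1 Mye-/- mice carried floxed *Bmal1*, the clock gene listed in the files as *Arntl*, together with Cre knocked into *Lyz2*, a lysozyme gene that myeloid cells use, and were bred in-house. Mice of either genotype were left untreated or were given imiquimod (IMQ), a Toll-like receptor agonist used to induce lupus-like disease, as a 5% cream on the ears 3 times per week for 6 weeks from an age of 8 to 10 weeks. The age of the untreated mice was not given in the sources used here. Neutrophils were isolated by magnetic negative selection after euthanasia in the morning. Because genotype went together with the source of the mice and with the Cre insertion, these cannot be told apart. The study names both a NovaSeq and a NextSeq instrument without saying which library was read on which, so a difference between instruments could not be tested.

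Primary granules are the first granules that a developing neutrophil makes, at the promyelocyte stage, and their proteins are stored until the mature cell meets a microbe. Myeloperoxidase, the product of *Mpo*, turns hydrogen peroxide and chloride into hypochlorous acid, and the serine proteases neutrophil elastase (*Elane*), proteinase 3 (*Prtn3*), cathepsin G (*Ctsg*) and neutrophil serine protease 4 (*Prss57*) digest proteins. Cathepsin C (*Ctsc*) activates these proteases by trimming their N-terminal ends, and serglycin (*Srgn*) is the proteoglycan core on which many granule proteins are packed. *Ms4a3* encodes a membrane-spanning protein typical of granulocyte and monocyte precursors. Transcription of the myeloperoxidase and serine protease genes is known to be largely switched off as neutrophils mature, and myeloperoxidase and proteinase 3 are known targets of autoantibodies in vasculitis.

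On mm10, 3 of the serine protease genes are neighbours on chromosome 10, with *Prss57* at chr10:79781474-79790961 on the minus strand, *Prtn3* at chr10:79874476-79883174 on the plus strand and *Elane* at chr10:79886247-79888215 on the plus strand. *Srgn* lies on the same chromosome at chr10:62493833-62527451. *Mpo* lies at chr11:87793581-87804413, *Ctsg* at chr14:56099881-56102574 and *Ms4a3* at chr19:11629496-11640851. *Ctsc*, at chr7:88278085-88310888, shares its chromosome with *Arntl*, whose start is 24.9 Mb away. The gene models of *Mpo*, *Prtn3*, *Prss57* and *Ctsc* overlap a gene annotated on the opposite strand (*Gm11505*, *Plppr3*, *Fstl3* and *Gm26522*). As the strand setting of the counting is not given in the sources used here, reads of such partners cannot be told apart.

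The 250 bases before the transcription start in RefSeq (GRCm38.p6) were read for 7 of the 8 genes (*Srgn* has 2 starts, and *Prss57* had no entry). They are shown for the 4 genes whose levels moved together most closely from library to library, and for *Ctsc*, which did not move with them. Capitals mark AGGAAGT, a motif bound by the ETS family factor PU.1, or its reverse complement in *Ctsc*. The windows are chr11:87793534-87793783 (*Mpo*, plus strand), chr10:79886062-79886311 (*Elane*, plus strand), chr10:79879417-79879666 (*Prtn3*, plus strand), chr14:56102575-56102824 (*Ctsg*, minus strand) and chr7:88277835-88278084 (*Ctsc*, plus strand). The gene positions given above come from GENCODE, whose starts differ from those of RefSeq for some genes. By those positions the *Prtn3* window lies within the gene, and the *Mpo* and *Elane* windows reach into it. Distances of motifs are counted from the RefSeq starts.
Mpo: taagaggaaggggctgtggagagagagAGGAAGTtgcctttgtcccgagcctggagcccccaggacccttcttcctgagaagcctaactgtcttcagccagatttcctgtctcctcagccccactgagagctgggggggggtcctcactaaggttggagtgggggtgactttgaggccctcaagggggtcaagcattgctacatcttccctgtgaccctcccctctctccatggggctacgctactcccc
Elane: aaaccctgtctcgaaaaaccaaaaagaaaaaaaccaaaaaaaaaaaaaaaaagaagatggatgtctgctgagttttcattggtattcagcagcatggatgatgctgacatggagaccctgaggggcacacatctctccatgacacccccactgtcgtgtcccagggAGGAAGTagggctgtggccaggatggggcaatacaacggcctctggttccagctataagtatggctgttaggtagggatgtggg
Prtn3: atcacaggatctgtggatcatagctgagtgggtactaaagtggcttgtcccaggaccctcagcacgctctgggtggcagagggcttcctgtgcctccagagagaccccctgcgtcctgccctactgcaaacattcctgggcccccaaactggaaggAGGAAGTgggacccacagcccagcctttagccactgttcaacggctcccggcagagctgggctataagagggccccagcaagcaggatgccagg
Ctsg: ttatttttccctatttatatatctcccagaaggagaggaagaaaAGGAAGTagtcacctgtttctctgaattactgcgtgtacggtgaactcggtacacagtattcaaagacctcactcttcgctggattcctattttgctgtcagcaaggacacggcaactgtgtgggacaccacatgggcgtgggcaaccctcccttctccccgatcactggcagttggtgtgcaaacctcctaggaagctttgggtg
Ctsc: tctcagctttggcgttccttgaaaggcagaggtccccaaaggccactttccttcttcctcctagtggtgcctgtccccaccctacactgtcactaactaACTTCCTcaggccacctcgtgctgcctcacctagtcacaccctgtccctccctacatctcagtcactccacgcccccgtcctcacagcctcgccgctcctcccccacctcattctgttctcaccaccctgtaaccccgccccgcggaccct
AGGAAGT was found, on either strand, in the windows of these 5 genes, and in 7.69% of 32851 mouse promoters of the same length. The first base of the match lay 84 bases before the start in *Elane*, 94 in *Prtn3*, 151 in *Ctsc*, 206 in *Ctsg* and 223 in *Mpo*. CAACNG, bound by MYB, was present in *Elane*, *Prtn3*, *Ctsg* and *Srgn* against 29.3% of promoters, and TGTGGT, bound by RUNX factors, in *Ctsg* and *Srgn* against 14.0%. TTGCNNAA (C/EBP, 9.56% of promoters) and the E-box CACGTG (CLOCK and BMAL1, 6.02%) matched none of the windows. Both strands were searched, no match of one motif overlapped that of another, and the motifs were chosen with earlier results known. A match or its absence in these windows describes the letters only.

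The libraries held between 30782166 and 92613500 reads on genes (median 66094896), and levels are given as CPM, counts scaled to a common library size with edgeR's TMM factors. *Lyz2*, into which the Cre is inserted, was at 10430 to 12030 CPM in untreated WT and at 101 to 177 CPM in untreated Bmal1 Mye-/-, so the genotype labels held in this gene, and its range was 2465 to 10630 CPM against 58.8 to 127 CPM with IMQ. *Arntl* itself was low in every group (0.895 to 1.71 CPM in untreated WT, 0.468 to 1.10 in untreated Bmal1 Mye-/-, 0.562 to 1.87 in IMQ-treated WT and 0.338 to 1.52 in IMQ-treated Bmal1 Mye-/-), and the genotypes overlapped. Markers of neutrophils (10 of 11 listed) summed to 76030 to 169400 CPM. IMQ-treated Bmal1 Mye-/- replicate 1 and IMQ-treated WT replicate 3 stood apart from the others, with the highest TMM factors (1.38 and 1.16, against at most 1.09) and the largest shares of reads without a unique alignment (6.50% and 6.34%, against at most 5.75%). Mature neutrophil genes (11 genes, among them *S100a8*, *S100a9*, *Csf3r* and *Il1b*) summed to 34230 CPM in the former and 57580 CPM in the latter. The sum was 56640 CPM in IMQ-treated Bmal1 Mye-/- replicate 5 and 75220 to 97220 CPM in all other libraries. *S100a8* and *S100a9* weigh most in these sums, with means of 25100 and 35840 CPM in untreated WT, beside 2604 CPM for *Csf3r* and 383 CPM for *Il1b*. In bulk samples, fewer cells of a type and less RNA per cell cannot be told apart.

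Per kilobase of exon, the order of the 8 genes in untreated WT was *Srgn*, *Elane*, *Mpo*, *Prtn3*, *Ctsg*, *Ms4a3*, *Prss57* and *Ctsc*. Mean levels ran from 406 ± 81.0 CPM per kb for *Srgn* and 142 ± 85.8 for *Elane* down to 7.91 ± 1.50 for *Prss57* and 2.78 ± 0.411 for *Ctsc* (SD, n = 5). *Srgn*, at 306 to 497 CPM per kb, lay above *Elane*, at 43.5 to 274, without overlap, and *Prss57*, at 6.11 to 10.1, lay above *Ctsc*, at 2.44 to 3.49. All other neighbours in the order overlapped between mice. Within single libraries the order was firmer, as *Elane* exceeded *Mpo*, *Prtn3* exceeded *Ctsg* and *Ms4a3* exceeded *Prss57* per kilobase in 20 of 20 libraries. *Srgn* exceeded *Elane* in 18 of 20 libraries. *Mpo* exceeded *Prtn3* in 13 libraries and *Ctsg* exceeded *Ms4a3* in 14, so these pairs changed places between libraries. By group means, *Ctsc* rose from the last place to the one above *Prss57* in IMQ-treated Bmal1 Mye-/- (18.6 ± 20.01 CPM per kb against 8.99 ± 1.85, SD, n = 5). Their ranges overlapped there, and that of *Ctsc* was wide, at 6.26 to 53.9 CPM per kb, with replicate 1 the highest. Within single libraries *Prss57* exceeded *Ctsc* in 15 of 20, so this pair also changed places between libraries.

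*Mpo*, which encodes the peroxidase of the granule, varied widely between mice of a group. In untreated WT, replicates 1 to 5 had 269, 333, 607, 87.7 and 185 CPM, and in untreated Bmal1 Mye-/- 244, 179, 302, 192 and 521 CPM. With IMQ, *Mpo* was at 99.4, 261, 211, 41.3 and 103 CPM in WT and at 652, 241, 499, 69.4 and 121 CPM in Bmal1 Mye-/-. The groups overlapped in every comparison, since untreated WT replicate 4 was as low as the treated libraries and IMQ-treated Bmal1 Mye-/- held both the highest library and one of the lowest. The highest and the lowest mouse of a group differed 2.91-fold in untreated Bmal1 Mye-/-, 6.32-fold in IMQ-treated WT, 6.92-fold in untreated WT and 9.40-fold in IMQ-treated Bmal1 Mye-/-.

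The serine protease genes followed the same mice. *Elane* was at 134, 155, 270, 42.8 and 96.1 CPM in untreated WT and at 122, 102, 151, 83.5 and 205 CPM in untreated Bmal1 Mye-/-. With IMQ, *Elane* was at 49.9, 119, 141, 19.3 and 51.5 CPM in WT and at 345, 126, 216, 59.0 and 73.3 CPM in Bmal1 Mye-/-. As for *Mpo*, WT replicate 3 was the highest and replicate 4 the lowest of the untreated WT mice. *Prtn3*, whose product is a close relative of elastase, had 97.9, 105, 185, 32.2 and 68.2 CPM in untreated WT and 92.4, 83.1, 121, 59.4 and 145 CPM in untreated Bmal1 Mye-/-. With IMQ, *Prtn3* reached 58.5, 110, 259, 31.3 and 35.5 CPM in WT and 497, 143, 230, 69.0 and 131 CPM in Bmal1 Mye-/-. The 259 CPM of IMQ-treated WT replicate 3 was above 4 of the 5 values of IMQ-treated Bmal1 Mye-/-, while the other WT values were at or below 110 CPM. *Ctsg*, which encodes a protease of broader specificity, was at 22.1, 30.8, 51.5, 7.54 and 16.1 CPM in untreated WT and 19.4, 15.8, 23.0, 14.5 and 38.9 CPM in untreated Bmal1 Mye-/-. With IMQ, *Ctsg* was at 13.5, 29.9, 33.8, 6.85 and 9.53 CPM in WT and at 93.6, 31.9, 65.0, 12.5 and 26.7 CPM in Bmal1 Mye-/-. *Prss57*, the fourth protease, was steadier than the other three, with a coefficient of variation of 18.9% to 25.5% within groups against 33.4% to 96.0% for *Elane*, *Prtn3* and *Ctsg*. *Prss57* was at 17.4 to 28.6 CPM in untreated WT (median 22.9), 17.9 to 27.1 CPM in untreated Bmal1 Mye-/- (median 18.5), 17.1 to 30.9 CPM in IMQ-treated WT (median 19.5) and 21.0 to 34.2 CPM in IMQ-treated Bmal1 Mye-/- (median 23.6).

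*Ms4a3*, the precursor marker, was at 32.3, 30.9, 46.6, 14.3 and 17.8 CPM in untreated WT and at 24.1, 24.0, 36.0, 17.1 and 34.5 CPM in untreated Bmal1 Mye-/-. With IMQ, *Ms4a3* was at 35.6, 43.9, 102, 13.7 and 12.9 CPM in WT and at 79.8, 33.3, 76.8, 40.5 and 66.4 CPM in Bmal1 Mye-/-. In the latter group 4 of 5 mice were above every untreated Bmal1 Mye-/- mouse.

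*Ctsc* and *Srgn*, whose products process and package granule proteins, behaved differently from the protease genes. *Ctsc*, whose product activates the proteases, was at 15.5, 14.2, 15.2, 15.6 and 20.3 CPM in untreated WT and at 23.4, 31.2, 14.9, 15.4 and 14.9 CPM in untreated Bmal1 Mye-/-. With IMQ, *Ctsc* was at 45.3, 33.7, 40.5, 47.5 and 32.2 CPM in WT and at 313, 84.9, 52.1, 36.4 and 52.4 CPM in Bmal1 Mye-/-. Every IMQ-treated library was above every untreated library of its genotype, and replicate 1 of the IMQ-treated Bmal1 Mye-/- mice was far above the other 19 libraries. *Srgn*, the packaging proteoglycan, was at 672, 872, 776, 1046 and 1092 CPM in untreated WT and at 896, 952, 1107, 1195 and 858 CPM in untreated Bmal1 Mye-/-. With IMQ, *Srgn* was at 712, 697, 284, 738 and 884 CPM in WT and at 227, 615, 513, 716 and 474 CPM in Bmal1 Mye-/-. All IMQ-treated Bmal1 Mye-/- libraries were below all untreated ones of that genotype, while the WT groups overlapped. The lowest 2 values, 227 and 284 CPM, belonged to the 2 libraries with the highest TMM factors.

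**Figure D1:**
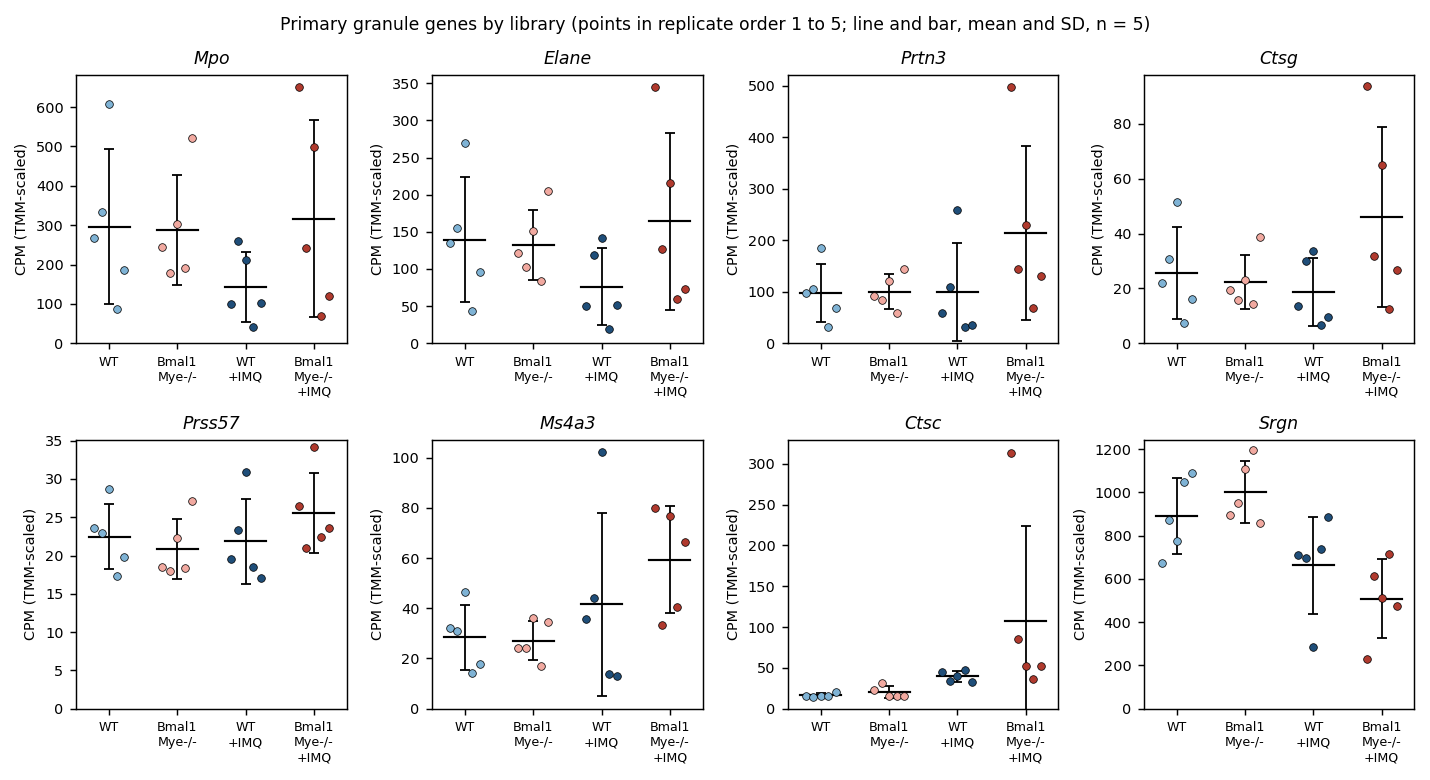
Level of each primary granule gene in each library, as TMM-scaled CPM on a linear axis from 0, by genotype and treatment. Points are the 5 mice of a group in replicate order and the line and bar give the mean and SD. The groups of *Mpo* overlap throughout, whereas all IMQ-treated *Ctsc* points lie above the untreated points of their genotype.

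To ask whether the loss of *Bmal1* in myeloid cells changed these genes at rest, untreated Bmal1 Mye-/- mice were compared with untreated WT. By the quasi-likelihood test of edgeR, adjusted over all 14030 genes by the method of Benjamini and Hochberg (threshold 0.05), 0 of the 8 genes were called, and 0.207% of all genes were. The unadjusted p was under 0.05 for 0 of the 8 and for 2.19% of all genes, and DESeq2 and limma also called 0 of the 8. The fitted log2 fold changes ran from -0.20 for *Ctsg* (standard error 0.54) to 0.31 for *Ctsc* (0.43), and *Mpo* was at -0.04 (95% interval -1.26 to 1.17). For *Mpo*, *Elane*, *Prtn3* and *Ctsg* the intervals reached 0.93 or more to either side of 0. That of *Prss57* was narrower, at -0.48 to 0.26, and that of *Srgn* ran from -0.40 to 0.73. The sign of the small *Mpo*, *Elane*, *Prtn3*, *Ctsg* and *Ms4a3* differences turned when single libraries were left out.

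IMQ treatment of Bmal1 Mye-/- mice was accompanied by higher *Ctsc* and lower *Srgn*. *Ctsc* rose 5.40-fold (log2 fold change 2.43, standard error 0.45, edgeR adjusted p = 0.00473), higher in 5 of 5 mice than in any untreated mouse of the genotype. *Srgn* fell 1.97-fold (log2 fold change -0.98, standard error 0.27, edgeR adjusted p = 0.0184), lower in 5 of 5 mice. In this comparison 23.5% of all genes tested were called, 14.4% higher and 9.04% lower, so 2 of 8 genes is a share near that background. Groups did not overlap for 10.8% of all genes in the higher and 9.31% in the lower direction. The median log2 fold change of the 8 genes was 0.68, and that of all genes 0.02. *Ms4a3* was higher by 1.13 on the log2 scale (standard error 0.46, edgeR adjusted p = 0.0798). With the replicate number as a block in a fit of all groups, its log2 fold change was 1.12 and the edgeR adjusted p = 0.0288. The labels do not say that mice of the same number are paired. *Ms4a3* was also called by DESeq2 (1.09, adjusted p = 0.0455) and when only the 2 Bmal1 Mye-/- groups were fitted (1.13, edgeR adjusted p = 0.0157). *Prtn3* and *Ctsg* were at 1.09 and 1.04 (edgeR adjusted p = 0.162 and 0.161), *Prss57* at 0.30, *Elane* at 0.31 and *Mpo* at 0.14, and none of these passed the test. Without IMQ-treated Bmal1 Mye-/- replicate 1, the *Ctsc* difference was 1.51 (edgeR adjusted p = 0.00519), and with IMQ-treated WT replicate 3 left out as well it was 1.52 (edgeR adjusted p = 0.0016). *Srgn* was then at -0.78 (adjusted p = 0.0368) and -0.77 (adjusted p = 0.00249). Without untreated Bmal1 Mye-/- replicate 4, *Srgn* was at -0.90 with an edgeR adjusted p of 0.05 and was no longer called.

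The same treatment in WT mice gave 0 calls among the 8 genes, where 3.95% of all genes were called. The unadjusted p was under 0.05 for 1 gene, *Ctsc*, against 22.3% of all genes, DESeq2 called 1 gene (*Ctsc*) and limma called 0. *Ctsc* was 2.47-fold higher (log2 fold change 1.30, standard error 0.43, edgeR adjusted p = 0.0849), and its groups did not overlap, as for 3.11% of all genes in the higher direction. Its adjusted p was 0.0257 in DESeq2, and 0.00921 when only the 2 WT groups were fitted. *Mpo* was at -1.05 (standard error 0.59, edgeR adjusted p = 0.307) and *Elane* at -0.87 (adjusted p = 0.357), *Ctsg* at -0.45, *Srgn* at -0.43 and *Ms4a3* at 0.55. *Prtn3* was at 0.02 and *Prss57* at -0.04, within the spread between mice. The median over the 8 genes was -0.23, beside 0.03 for all genes. Leaving out IMQ-treated WT replicate 3 turned *Prtn3* to -0.75 and *Ms4a3* to -0.11, and neither was called.

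To ask whether the genotypes differed under treatment, the treated mice of both genotypes were compared. This comparison shares its libraries with the preceding ones. Fitted levels were higher in Bmal1 Mye-/- for 7 of the 8 genes (53.1% of all genes), with a median log2 fold change of 1.11 beside 0.03 for all genes, but 0 of the 8 passed edgeR's test, where 0.292% of all genes did. The unadjusted p was under 0.05 for *Ctsg* and *Ctsc* (2 of 8, against 19.9% of all genes). DESeq2 called 1 gene, *Ctsc* (1.40, adjusted p = 0.0429), and limma called 0. *Ctsc* was at 1.44 (standard error 0.43, edgeR adjusted p = 0.173), *Ctsg* at 1.30 (0.55, adjusted p = 0.233), *Mpo* at 1.15 (0.59, adjusted p = 0.263), *Prtn3* at 1.11 (0.58, adjusted p = 0.265) and *Elane* at 1.11 (0.54, adjusted p = 0.253). *Ms4a3* was at 0.51, *Prss57* at 0.22 and *Srgn* at -0.38. All 8 genes overlapped between the groups.

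Both libraries with the highest TMM factors took part in this comparison, and they moved it in opposite directions. Without IMQ-treated WT replicate 3, 3 genes were called, *Prtn3* at 1.87 (edgeR adjusted p = 0.0266), *Ms4a3* at 1.18 (adjusted p = 0.0440) and *Ctsc* at 1.44 (adjusted p = 0.0393), in a fit that called 3129 genes in all. Without IMQ-treated Bmal1 Mye-/- replicate 1, *Mpo* was at 0.72, *Elane* at 0.66, *Prtn3* at 0.56, *Ctsg* at 0.89 and *Ctsc* at 0.51, and 0 of the 8 were called. Without IMQ-treated Bmal1 Mye-/- replicate 4, *Ctsc* was called (1.66, edgeR adjusted p = 0.0460). With both libraries left out, 7 of 8 genes were still fitted higher, *Prtn3* by 1.32 (edgeR adjusted p = 0.0842), *Ctsg* by 1.22 (0.159), *Ms4a3* by 1.07 (0.105), *Elane* by 1.02 (0.218), *Mpo* by 0.92 (0.344) and *Ctsc* by 0.53 (0.164), and 0 were called. With all mice included, edgeR detected no difference between the treated genotypes in these genes beyond the spread between mice.

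**Figure D2:**
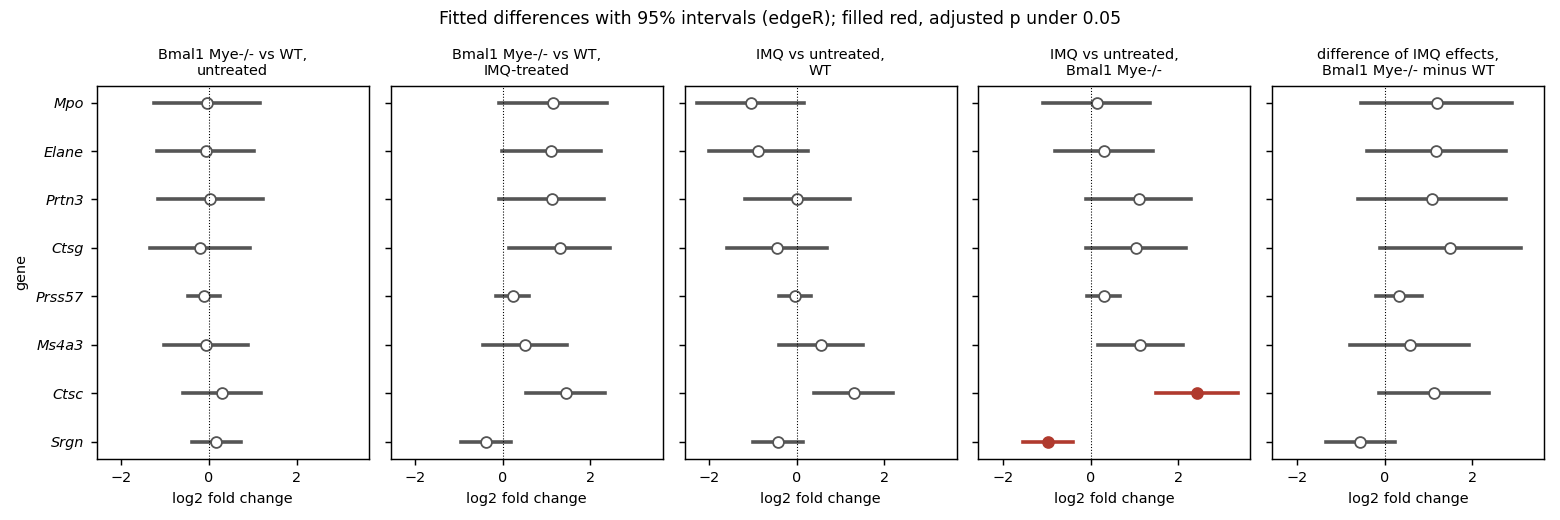
Fitted log2 fold change (x axis) of each of the 8 genes (y axis) in the 4 comparisons of 2 groups and in the difference between the IMQ effects, with 95% intervals from edgeR. Filled red points passed an adjusted p of 0.05, which holds for *Ctsc* (2.43) and *Srgn* (-0.98) in IMQ-treated against untreated Bmal1 Mye-/-.

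Whether IMQ acted differently in the genotypes was tested with the interaction of genotype and treatment. It called 0 of the 8 genes (adjusted p = 0.640 to 0.709 by edgeR) and 0% of all genes, and DESeq2 and limma called 0 as well. The unadjusted p was under 0.05 for 0 of the 8 and for 5.14% of all genes. The fitted difference was largest for *Ctsg* (1.50, 95% interval -0.11 to 3.11), followed by *Mpo* (1.19, -0.53 to 2.91), *Elane* (1.18, -0.40 to 2.76), *Ctsc* (1.13, -0.13 to 2.39) and *Prtn3* (1.08, -0.61 to 2.77). The *Ctsc* value rested on IMQ-treated Bmal1 Mye-/- replicate 1, without which it was 0.21 (unadjusted p = 0.525 by edgeR), and it was 0.23 (unadjusted p = 0.499) with IMQ-treated WT replicate 3 left out as well. That *Ctsc* and *Srgn* passed in Bmal1 Mye-/- and not in WT does not show that the genotypes differed.

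From mouse to mouse, the myeloperoxidase and protease genes rose and fell together. Over the 20 libraries, Pearson's r of log2 CPM with *Mpo* was 0.975 for *Elane* (Spearman's rho 0.962, permutation p = 1e-05 for each, the smallest that 100000 permutations can give, adjusted p = 3.5e-05 over 7 relations). It was 0.894 for *Ctsg* (rho 0.881, permutation p = 1e-05, adjusted p = 3.5e-05) and 0.807 for *Prtn3* (rho 0.792, permutation p = 3e-05 and 8e-05, adjusted p = 7e-05 for r). The relation was weaker for *Prss57* (r 0.657, rho 0.669, permutation p = 0.0018 and 0.0015, adjusted p = 0.0032 for r) and for *Ms4a3* (r 0.529, rho 0.501, permutation p = 0.016 and 0.026, adjusted p = 0.022 for r). For *Ctsc* (r 0.0197, rho -0.268, permutation p = 0.93 and 0.25) and *Srgn* (r -0.255, rho -0.202, permutation p = 0.28 and 0.39) no relation was detectable. The genes share each library and its depth.

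These relations did not rest on the 2 mice of lowest *Mpo*, whereas the mice of highest *Mpo* were kept in this check. Without the 2 libraries farthest from the median of *Mpo*, replicate 4 of either IMQ-treated group, r was 0.979 for *Elane*, 0.880 for *Ctsg*, 0.788 for *Prtn3*, 0.719 for *Prss57* and 0.519 for *Ms4a3*. As deviations from the group means, which leaves only the spread within groups, r was 0.975 for *Elane*, 0.974 for *Ctsg*, 0.894 for *Prtn3*, 0.763 for *Prss57* and 0.702 for *Ms4a3*. *Srgn* then ran against *Mpo* (r -0.586, rho -0.605, permutation p = 0.0056 and 0.0058), and *Ctsc* remained without a detectable relation (r 0.285). The *Srgn* relation was therefore seen within groups and not over all libraries. Among the other pairs, r over the 20 libraries was 0.961 between *Prtn3* and *Ctsg*, 0.882 between *Prtn3* and *Ms4a3*, 0.864 between *Prss57* and *Ms4a3*, and -0.789 between *Ms4a3* and *Srgn*.

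**Figure D3:**
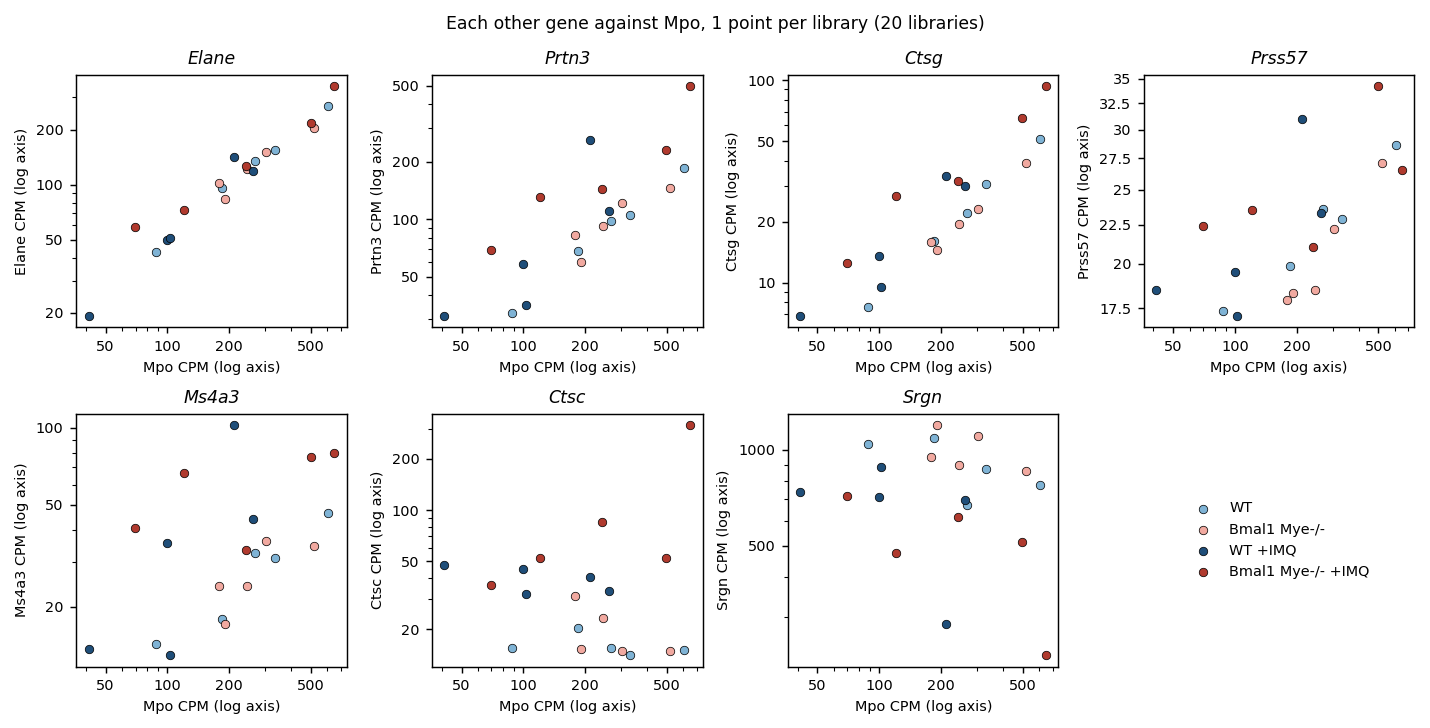
CPM of each of the other 7 genes (y axis, log scale) against CPM of *Mpo* (x axis, log scale), with 1 point per library coloured by group. *Elane* follows *Mpo* closely (r = 0.975), *Ctsg* points of IMQ-treated mice lie above those of untreated mice with like *Mpo*, as do many but not all *Prtn3* points, and *Ctsc* shows no such relation.

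Since the genes moved together, each was also set against *Mpo* within its own library, which removes the scale of the library. These ratios were examined after the values had been seen and are a description without a test. *Elane* was at 50.03, 46.5, 44.5, 48.8 and 51.9 reads per 100 *Mpo* reads in untreated WT and at 49.8, 57.0, 49.96, 43.6 and 39.2 in untreated Bmal1 Mye-/-. With IMQ it was at 50.1, 45.6, 67.0, 46.8 and 50.2 in WT and at 53.0, 52.5, 43.3, 85.1 and 60.5 in Bmal1 Mye-/-. Treated and untreated mice overlapped in either genotype, and the highest ratios were those of IMQ-treated Bmal1 Mye-/- replicate 4 and IMQ-treated WT replicate 3. The ratio of *Ctsg* was 8.23, 9.25, 8.48, 8.59 and 8.70 reads per 100 *Mpo* reads in untreated WT and 7.95, 8.80, 7.61, 7.56 and 7.46 in untreated Bmal1 Mye-/-. With IMQ it was 13.6, 11.4, 16.0, 16.6 and 9.29 in WT and 14.4, 13.2, 13.03, 18.1 and 22.1 in Bmal1 Mye-/-. Treated and untreated mice did not overlap in either genotype, although in WT the nearest values, 9.25 and 9.29, all but met. Of all genes tested, 1.05% in WT and 1.26% in Bmal1 Mye-/- had a ratio to *Mpo* that was higher with IMQ without overlap. The narrow range of the untreated mice stood beside *Mpo* levels that differed 6.92-fold among untreated WT.

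*Prtn3* also took a larger share relative to *Mpo* in many treated mice, with overlap. Its medians were 36.4 reads per 100 *Mpo* reads in untreated WT, 37.9 in untreated Bmal1 Mye-/-, 58.8 in IMQ-treated WT and 76.2 in IMQ-treated Bmal1 Mye-/-. The ranges were 30.5 to 36.9, 27.9 to 46.3, 34.6 to 123 and 46.1 to 108. *Ms4a3* had medians of 9.64, 9.87, 33.1 and 15.4 reads per 100 *Mpo* reads in the same order, and in IMQ-treated Bmal1 Mye-/- its values split into 12.2, 13.8 and 15.4 on one side and 54.8 and 58.3 on the other. The high pair were replicates 5 and 4, the mice with the lowest *Mpo* of that group. A ratio within a library shows unequal levels and does not tell which of the 2 genes moved.

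**Figure D4:**
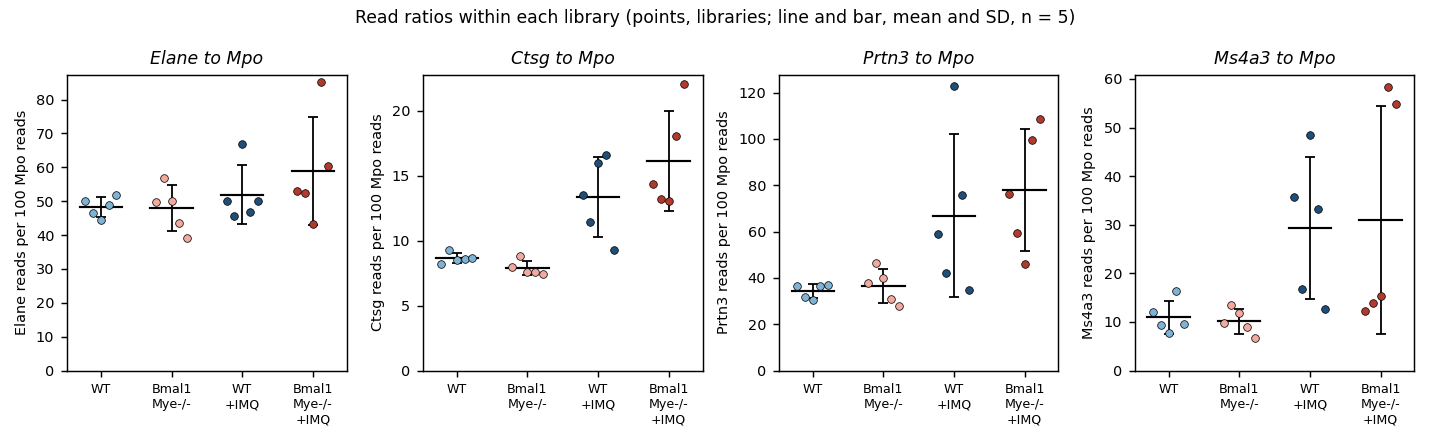
Reads of *Elane*, *Ctsg*, *Prtn3* and *Ms4a3* per 100 *Mpo* reads in each library (y axes, linear from 0) by group, with points for the 5 mice and a line and bar for mean and SD. *Elane* lies at 39.2 to 57.0 in untreated and at 43.3 to 85.1 in IMQ-treated mice, while *Ctsg* lies at 7.46 to 9.25 in untreated and at 9.29 to 22.1 in IMQ-treated mice.

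The genes outside the 8 that were most like *Mpo* were sought by Pearson's r of log2 CPM over the 20 libraries. *Elane* ranked 1 and *Ctsg* 3 among all genes tested, with *Nkg7* (r 0.898), which encodes a granule membrane protein of cytotoxic cells, at 2. *Trub1* (0.887), *Srm* (0.886), *Bhlhb9* (0.882), *Igfbp4* (0.878), *Mgl2* (0.869), *Atad3a* (0.865), *Fkbp4* (0.861), *Rangrf* (0.859) and *Engase* (0.859) came next. *Srm* encodes spermidine synthase, *Fkbp4* a co-chaperone of HSP90 and *Igfbp4* a binding protein of insulin-like growth factors. *Prtn3* ranked 45, *Prss57* 548, *Ms4a3* 1419, *Ctsc* 7636 and *Srgn* 10179. Between the treated genotypes, *Nkg7* was at 1.01 (edgeR adjusted p = 0.245). *Mgl2* was lower with IMQ in WT (-1.68, edgeR adjusted p = 0.0396).

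Other genes of the azurophil granule and its lysosomal enzymes (20 listed, 18 tested) were compared next. With IMQ in Bmal1 Mye-/-, *Stom* (0.99), which encodes a membrane protein, was among the genes that rose, and 3 fell, *Man2b1* (-0.61), *Ctsd* (-0.74) and *Fuca1* (-0.51), which encode lysosomal hydrolases. Of all genes tested, 14.4% were called higher and 9.04% lower with IMQ in Bmal1 Mye-/-. The median of the list was -0.08. In WT, 0 passed edgeR's test, and 5 had an unadjusted p under 0.05, against 3.95% and 22.3% of all genes. Between the genotypes the only call was *Lyz2* (-6.40 untreated and -6.36 with IMQ), which carries the Cre insertion. *Bpi*, a classical azurophil gene in other species, had at most 15 counts in any library and was not tested. Genes of the secondary granules, which are made later in maturation (12 tested), had 1 call higher, *Abca13* (0.46), and 1 lower, *Olfm4* (-0.87), in IMQ-treated Bmal1 Mye-/-. In WT 0 were called by edgeR, and 2 had an unadjusted p under 0.05. The shares of all genes given above hold for these counts too.

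The regulators of granulocyte development (16 tested) included 3 genes that rose with IMQ in Bmal1 Mye-/-, *Cbfb* (0.76, edgeR adjusted p = 0.00383), the partner of RUNX factors, *Irf8* (1.62, adjusted p = 0.0413) and *Klf4* (1.89, adjusted p = 0.0365), both factors of the monocyte lineage, and 1 that fell, the receptor gene *Csf3r* (-1.38, adjusted p = 0.0223). The spread of *Irf8* and *Klf4* was wide, at 8.29 to 133 and 6.51 to 137 CPM in IMQ-treated Bmal1 Mye-/-. In untreated mice of that genotype they were at 9.07 to 22.3 and 8.40 to 16.5 CPM, so the ranges overlapped. In WT, *Cbfb* alone was called (0.43, edgeR adjusted p = 0.0479), where 3.95% of all genes were. With IMQ in Bmal1 Mye-/-, 14.4% of all genes were called higher and 9.04% lower, so the counts of regulators there are near the background. The main factors of the promyelocyte stage did not pass in either genotype. In Bmal1 Mye-/- *Cebpa* was at -0.14, *Cebpe* at 0.18, *Gfi1* at 0.59 (edgeR adjusted p = 0.0804) and *Myb* at 0.16, and in WT they were at -0.60, 0.00, 0.39 and -0.26. Of 14 early precursor genes, 0 were called by edgeR in either genotype with IMQ or between the treated genotypes. The unadjusted p by edgeR was under 0.05 for 3 of them in Bmal1 Mye-/-, 3 in WT and 5 between the treated genotypes. The shares of all genes were 39.3%, 22.3% and 19.9% in the same order.

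Inhibitors of the granule proteases and of cysteine cathepsins (12 listed, 11 tested) included 5 that rose with IMQ in WT and 6 that rose in Bmal1 Mye-/-, beside 3.95% and 23.5% of all genes called in these comparisons. In WT the other 6 did not pass the test, and 6 of the 11 were fitted higher in either genotype. The median log2 fold change of the list was 0.53 in WT and 0.66 in Bmal1 Mye-/-, against 0.03 and 0.02 for all genes. *Serpinb1a*, which encodes an inhibitor of elastase, proteinase 3 and cathepsin G, rose by 0.87 in WT (edgeR adjusted p = 0.0307) and by 0.87 in Bmal1 Mye-/- (adjusted p = 0.0110). The stefin genes, inhibitors of cysteine cathepsins, rose most, *Stfa2* by 4.81 in WT (edgeR adjusted p = 0.0027) and by 3.62 in Bmal1 Mye-/- (adjusted p = 0.0046). *Stfa1* and *Stfa3* rose by 2.88 and 2.74 in WT and by 1.77 and 1.77 in Bmal1 Mye-/-. *Stfa1*, *Stfa2*, *Stfa2l1* and *Stfa3* are close copies of one another, so 4 of the genes that rose in either genotype are not taken as independent. Reads without a unique alignment were left out of the counts, so levels of such copies may be too low. *Cstb* and *Cst3*, other inhibitors of cysteine cathepsins, were at -0.04 and -0.22 in WT and at -0.04 and -0.15 in Bmal1 Mye-/-, and *Serpinb9* was at -0.47 in WT. *Slpi*, which encodes an inhibitor of elastase and cathepsin G, fell in Bmal1 Mye-/- (-0.88, edgeR adjusted p = 0.0316) and was at -0.29 in WT.

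Markers of other cell types and of the cell cycle moved in the same libraries. Of all genes, edgeR called 14.4% higher and 9.04% lower with IMQ in Bmal1 Mye-/-, and 0.292% between the treated genotypes. With IMQ in WT, 3.95% of all genes were called, and 22.3% had an unadjusted p under 0.05. Counts of the lists below are to be read beside these shares. Monocyte markers (10 genes) had 7 calls higher with IMQ in Bmal1 Mye-/-. In WT 0 were called by edgeR, and 3 had an unadjusted p under 0.05, near the share of all genes. They summed to 947.5 to 1235 CPM in untreated mice, 1234 to 1926 CPM in IMQ-treated WT and 1038 to 4002 CPM in IMQ-treated Bmal1 Mye-/-. The 4002 CPM belonged to replicate 1, the library with the highest *Ctsc*. The second highest sum of the group, 1970 CPM in replicate 2, also went with its second highest *Ctsc* (84.9 CPM). In untreated Bmal1 Mye-/- the highest sum, 1235 CPM in replicate 2, went with the highest *Ctsc* (31.2 CPM), and in untreated WT replicate 5 had the highest of both (1164 and 20.3 CPM). In IMQ-treated WT the highest sum, 1926 CPM in replicate 1, went with the second highest *Ctsc* (45.3 CPM). Other libraries did not match in this way. The highest *Ctsc* of IMQ-treated WT, 47.5 CPM in replicate 4, went with the lowest sum, 1234 CPM. In IMQ-treated Bmal1 Mye-/- the lowest sum, 1038 CPM in replicate 5, went with 52.4 CPM of *Ctsc*. The lowest *Ctsc* of that group, 36.4 CPM in replicate 4, went with a sum of 1503 CPM. Without IMQ-treated Bmal1 Mye-/- replicate 1 the *Ctsc* difference with IMQ was 1.51, as given above, and the part of the monocyte markers in it was not tested. Cell cycle genes (18 genes) had 14 calls higher in Bmal1 Mye-/-, and in WT 0 by edgeR and 12 at an unadjusted p under 0.05. Their median log2 fold changes were 1.70 and 1.02, and they summed to 555 to 1051 CPM in untreated mice, 636 to 3546 CPM in IMQ-treated WT and 1621 to 3644 CPM in IMQ-treated Bmal1 Mye-/-. Mature neutrophil genes (11 genes) had 4 calls lower in Bmal1 Mye-/- (*Ccl6*, *Csf3r*, *Il1b* and *Cd101*), and in WT 0 by edgeR and 1 at an unadjusted p under 0.05. Eosinophil genes (9 genes) had 3 calls between the treated genotypes, higher in Bmal1 Mye-/- (*Prg3* 3.59, *Prg2* 2.54 and *Epx* 2.97). With IMQ, *Prg3* and *Prg2* were lower in WT and *Siglecf* (-0.65) in Bmal1 Mye-/-. Eosinophil sums were 37.9 to 143 CPM in untreated mice, 21.7 to 42.8 CPM in IMQ-treated WT and 43.8 to 212.5 CPM in IMQ-treated Bmal1 Mye-/-. Progenitor genes (9 tested) and macrophage genes (8 tested) summed to at most 83.5 and 101 CPM, with 1 call, *Axl* of the macrophage list, higher with IMQ in Bmal1 Mye-/-. There, *Vpreb3* and *Cd79a* were among the B-lineage genes (8 tested, median log2 fold change -1.66) that were lower. In the same comparison 1 of 5 T and NK genes (*Cd3d*) and 1 of 10 neutrophil markers (*Csf3r*) were lower. There, 1 of 5 basophil and mast cell genes (*Ms4a2*) was higher. Of 6 erythroid genes, *Alas2* was higher with IMQ in WT. The part of these markers in the levels of the primary granule genes was not tested.

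**Figure D5:**
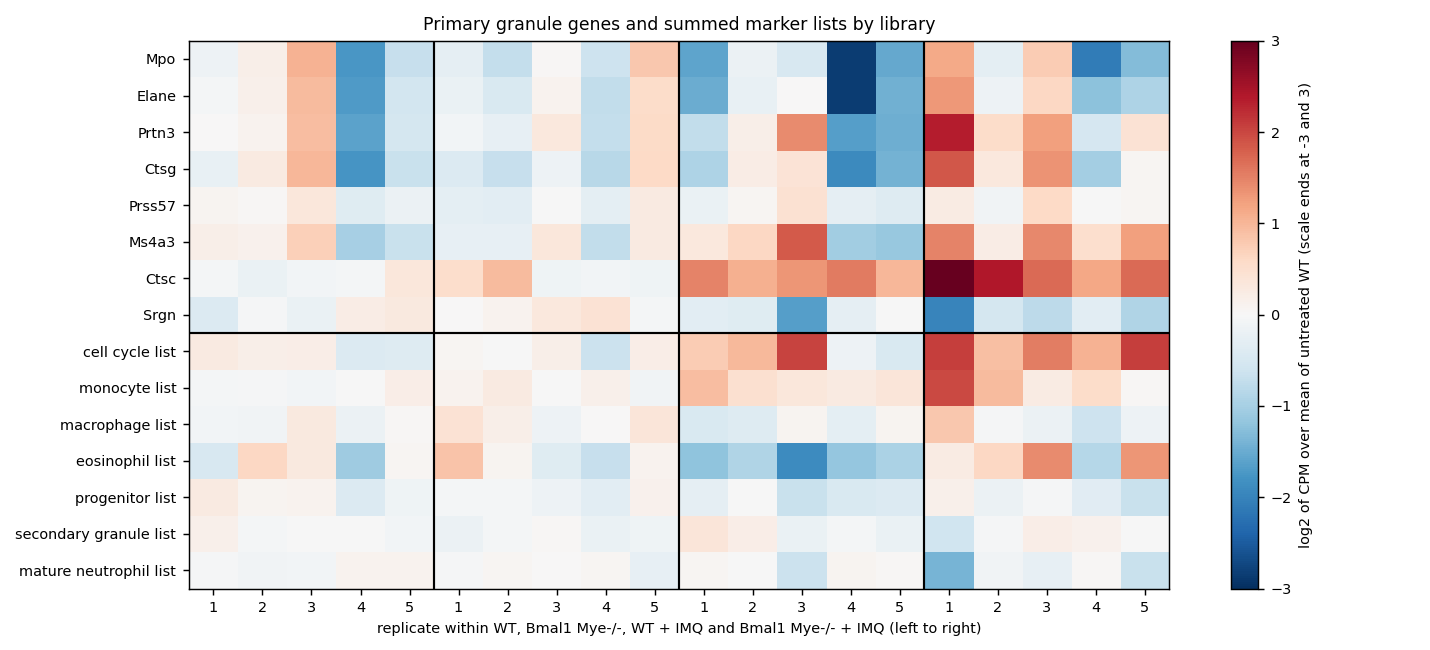
Level of each primary granule gene (upper 8 rows) and summed level of 7 marker lists (lower rows) in each of the 20 libraries, as log2 of CPM over the mean of untreated WT, on a colour scale that ends at -3 and 3. Columns are replicates 1 to 5 of each group. IMQ-treated Bmal1 Mye-/- replicate 1 is high in *Ctsc* and the monocyte list and low in *Srgn* and the mature neutrophil list, and IMQ-treated WT replicate 3 is low in *Srgn* too.

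Finally, genes whose starts lie within 100 kb of one of the 8 were examined (34 tested). Between the treated genotypes 1 was called, the eosinophil gene *Epx* next to *Mpo*. With IMQ in WT, *Ms4a6d* near *Ms4a3* was higher (2.06, edgeR adjusted p = 0.0447) and *Oosp1* lower (-2.08, adjusted p = 0.0426). With IMQ in Bmal1 Mye-/- 5 were higher, *Ms4a6d* (3.05, edgeR adjusted p = 0.00521), *Ms4a2* (1.00), *E130317F20Rik* (0.94), *Ptbp1* (0.82) and *Med16* (0.51), and 1 was lower, *Supt4a* (-0.67). Of all genes tested, 0.292% were called between the treated genotypes, 3.95% with IMQ in WT and 23.5% with IMQ in Bmal1 Mye-/-. *E130317F20Rik* and *Ptbp1* lie on one side of *Prtn3* and *Elane* and *Med16* on the other, and neither protease gene was called with IMQ in Bmal1 Mye-/-.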

How the data were processed

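The files hold raw counts of reads per gene, deposited by the authors without normalization. The study's methods name TopHat, Read 1 and mm10, while the submitters' processing notes name bcl2fastq, STAR 2.7.8a, HTSeq 2.0.1 and mm10. Annotation and strand setting are not given in the sources used here. Of the reads accounted for in a file, 58.05% to 62.59% lay on no single gene and were left out. Libraries were grouped by their labels, and 1 joined table with the same values was not used. Counts were analysed with edgeR 4.0.16 in R 4.3.3 (TMM factors, filterByExpr, 1 quasi-likelihood fit of the 4 groups in place of the study's analysis of variance on RPKM), with adjustment over 14030 genes and standard errors from the F statistic. The method was tested on simulated data. Alternatives used DESeq2 1.42.0, limma 3.58.1 on log2(CPM + 0.1), other scaling and filters, fewer groups, a replicate block, and each library left out. Leaving out both libraries with the highest TMM factors was chosen after seeing the data. Positions came from GENCODE vM21, and promoters from RefSeq.

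The genes and lists were chosen with earlier results of these data known. All 8 genes were named in every comparison, with up to 3 genes of smallest p from each other list, fixed regulators, the 10 genes most like *Mpo*, and neighbours. Further names in counts of 5 or fewer were chosen after their values were seen. Residuals of libraries with the same replicate number correlated at 0.128 to 0.426 in all 5 pairs of IMQ-treated and untreated Bmal1 Mye-/-. A fit with the number as a block is therefore given for this comparison. The labels do not say that the numbers pair mice, and libraries of unequal number were not compared in this way. The chi-square per degree of freedom of 40 pairs of libraries of a group was 16.9 to 731, so the spread between mice exceeds counting error. Results for some genes of the other lists are not reported here.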

Additional observations from a re-analysis of the deposited data

Results flagged for a closer look

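Each group of 5 values was searched for a highest or lowest library whose gap to the nearest other, over the range of the group, exceeded Dixon's critical value of 0.71. Of 60 groups of values, 3 had such a library, and chance alone gives about 1 in 20. *Ctsc* in IMQ-treated Bmal1 Mye-/- replicate 1 was at 313 CPM, with 84.9 CPM as the nearest of its group (gap over range 0.825). *Ctsc* in untreated WT replicate 5 was at 20.3 CPM, with 15.6 CPM as the nearest (0.773). The ratio of *Elane* to *Mpo* in IMQ-treated WT replicate 3 was 67.0 reads per 100 *Mpo* reads, with 50.2 as the nearest (0.787).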

How the results depend on the processing

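At the depth of 30782166 or more reads on genes, the spread between mice exceeded counting error. Of the 8 genes, DESeq2 called 1 between the treated genotypes (311 genes in all, against 41), 1 in WT with IMQ (1480 genes, against 554), and 3 in Bmal1 Mye-/- with IMQ (*Ms4a3* added, at 1.09). A fit of only the 2 groups compared called 1 of the 8 in WT with IMQ (186 genes) and 3 in Bmal1 Mye-/- with IMQ (*Ms4a3* added, at 1.13), and called 59 genes between untreated genotypes (against 29) and 16 between treated ones. Without a filter, WT with IMQ had 326 calls. With both libraries of the highest TMM factors left out, it had 899 calls, 1 of them among the 8 (*Ctsc*), and the treated genotypes had 1259. The cause of these shifts was not tested.

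With a replicate block, 190 genes were called in WT with IMQ. Residuals of the same number correlated at 0.0728 to 0.384 there. Between genotypes they correlated at -0.441 to 0.206 untreated and at -0.497 to 0.343 with IMQ. The numbers were not taken to pair mice in any comparison. The block changed no call among the 8 genes except that of *Ms4a3* given in the report. *Srgn* against *Mpo* on deviations from group means had r = -0.586.

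Leaving out 1 library at a time gave 24 to 27 calls between untreated genotypes, 20 to 3129 between treated ones (highest without IMQ-treated WT replicate 3), 48 to 1989 in WT with IMQ (lowest without untreated WT replicate 2, highest without IMQ-treated WT replicate 5), 1612 to 4037 in Bmal1 Mye-/- with IMQ, and 0 to 1 for the interaction. Of the 8 genes, 0 to 3 were called between treated genotypes, 1 to 3 in Bmal1 Mye-/- with IMQ (3 without IMQ-treated Bmal1 Mye-/- replicate 2, where *Ms4a3* was at 1.30, edgeR adjusted p = 0.0494), and 0 to 0 elsewhere.

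Some differences that were not called changed sign. *Prtn3* in WT with IMQ was at -0.0115 with RLE factors, -0.0116 in DESeq2, -0.2985 in limma, -0.0040 without a filter, -0.0169 with at least 10 counts in every library, -0.0011 with 2 groups, -0.0981 with the block and -0.7414 without both libraries, where *Ms4a3* was at -0.1086. In Bmal1 Mye-/- with IMQ, *Mpo* was at -0.0815 in limma, -0.2711 with the block and -0.2772 without both libraries, where *Elane* was at -0.1312. Between untreated genotypes, limma and the block gave 0.1284 and 0.3209 for *Mpo*, 0.1057 and 0.2154 for *Elane* and 0.0209 and 0.0439 for *Ms4a3*, and the block gave 0.1268 for *Ctsg*. Over single libraries left out, the untreated difference ranged from -0.389 to 0.3887 for *Mpo*, -0.3151 to 0.2993 for *Elane*, -0.1974 to 0.3922 for *Prtn3*, -0.5161 to 0.2133 for *Ctsg* and -0.2457 to 0.1745 for *Ms4a3*. With IMQ it ranged in WT from -0.7451 to 0.3764 for *Prtn3*, -0.2038 to 0.0588 for *Prss57* and -0.1116 to 0.7984 for *Ms4a3*, and in Bmal1 Mye-/- from -0.2951 to 0.4914 for *Mpo* and -0.1477 to 0.5431 for *Elane*.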
